A study of Homo sapiens with 12 samples.

Results

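The response of NFE2L1 knockout line KO1 to bortezomib was described from 4 of the 12 RNA-sequencing libraries of the series, chosen by their genotype and treatment labels, across the 12194 genes whose FPKM averaged 1 or more in the series. FPKM counts fragments per kilobase of gene, scaled to the fragments assigned to genes in the library. All cells were A549, an established human lung carcinoma line. The KO1 cells, labelled NFE2L1 KO1, were given DMSO vehicle (2 libraries, R1 and R2) or 200 nM bortezomib (2 libraries, R1 and R2) for 4 h. The same treatments were given to a control line labelled Control1, with libraries titled R2 or with no suffix, and to a knockout line labelled NFE2L1 KO2, with R1 and R2, again with 2 libraries in each of the groups. How the knockouts were made, and whether each line is a clone, is not given in the sources used here. Vehicle and bortezomib libraries were paired by the suffix of their titles. In the main fit, p-values measure the spread left after level differences between suffixes are removed, pooled over all 12 libraries. Nothing in the labels says that R1 and R2 came from separate cultures, so this spread may be technical.

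The proteasome is the barrel-shaped protease that degrades ubiquitin-tagged proteins, and bortezomib blocks its chymotrypsin-like active site. Cells answer such a block with heat shock factor 1, which turns on chaperone genes, with ATF4 and its partners, which turn on the integrated stress response, and with NFE2L1 (also called NRF1). NFE2L1 is made at the endoplasmic reticulum, extracted by VCP, deglycosylated by NGLY1 and cleaved by DDI2, and then raises the transcription of proteasome subunit genes as a dimer with a small MAF protein. The comparison within KO1 asks which parts of the response to bortezomib are seen in cells with a knockout of that factor.

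The 4 KO1 libraries held 13211608 to 18873518 assigned reads. In these libraries 3 reads on a 1 kb gene were worth 0.159 to 0.227 FPKM. The share of reads from mitochondrially encoded genes was 5.4% to 6.8% where the title lacks R2 (6 libraries) and 12.3% to 19.3% where it has it (6 libraries), with 19.3% (vehicle) and 17.9% (bortezomib) in KO1. Vehicle and bortezomib libraries of the same suffix correlated across genes at a Pearson's r of 0.928 (R1) and 0.911 (R2) on the log2(FPKM + 1) scale. Between the replicates of a treatment it was 0.842 with vehicle and 0.900 with bortezomib. Of the epithelial markers, KRT7, KRT8 and KRT18 lay between 212 and 755 FPKM in the KO1 libraries, while the lung differentiation markers NKX2-1 and SFTPC were at or near 0. All 4 endothelial markers and the leukocyte markers PTPRC, CD3E and LYZ stayed under an FPKM of 1. Among the fibroblast markers COL1A1, a fibrillar collagen chain, went from 1.42 and 1.56 to 7.55 and 19.1 (R1 and R2, vehicle to bortezomib; log2 change 2.40, SE 0.43, limma adjusted p 0.00454), and the other 5 reached at most 1.40. The leukocyte marker CD14, a co-receptor for bacterial lipopolysaccharide, went from 2.29 and 3.63 to 0.361 and 0.815 (log2 change -1.31, SE 0.18, limma adjusted p 0.00157). Summed over the lists, fibroblast markers went from 2.28 and 3.03 to 8.14 and 19.8 FPKM and leukocyte markers from 2.47 and 3.69 to 0.404 and 0.815, and their part in the results below was not tested.

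NFE2L1 itself (ENSG00000082641, chr17:48048329-48061487, plus strand) was read first as the targeted gene. Its FPKM in KO1 was 8.45 (R1) and 14.8 (R2) with vehicle and 27 (R1) and 35.8 (R2) with bortezomib. In the control line it went from 72.7 (no suffix) and 151 (R2) to 109 and 189, so every KO1 library lay below every control library. Within KO1 both bortezomib libraries lay above both vehicle libraries, with a log2 change of 1.39 (SE 0.16, limma adjusted p 0.0006). Without the replicate block the limma adjusted p was 0.406. A gene on the opposite strand overlaps NFE2L1, and whether counting used strand is not given in the sources used here, so reads of the pair cannot be told apart.

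Bortezomib changed the transcript level of many genes in KO1 within 4 h. Of the 12194 genes, 1694 (13.9%) were higher and 1684 (13.8%) were lower, together 3378 (27.7%), in limma with a block for the replicate suffix at a Benjamini-Hochberg adjusted p under 0.05. Every log2 change below is of FPKM + 1, so changes of genes with low FPKM are understated. All 3378 called genes had the same sign in the R1 and R2 pairs, against 9069 of all genes tested (74.4%). A call rests on the mean of these same paired differences, so this agreement is not separate support. The vehicle and bortezomib libraries did not overlap in 2146 of the called genes, and did not overlap in 28.7% of all genes tested. Log2 changes of at least 1 were seen for 368 genes called higher and 446 called lower, and of at least 2 for 46 and 23. The median change of all genes was 0.01, at -0.04 in the R1 pair and 0.07 in the R2 pair.

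**Figure D1:**
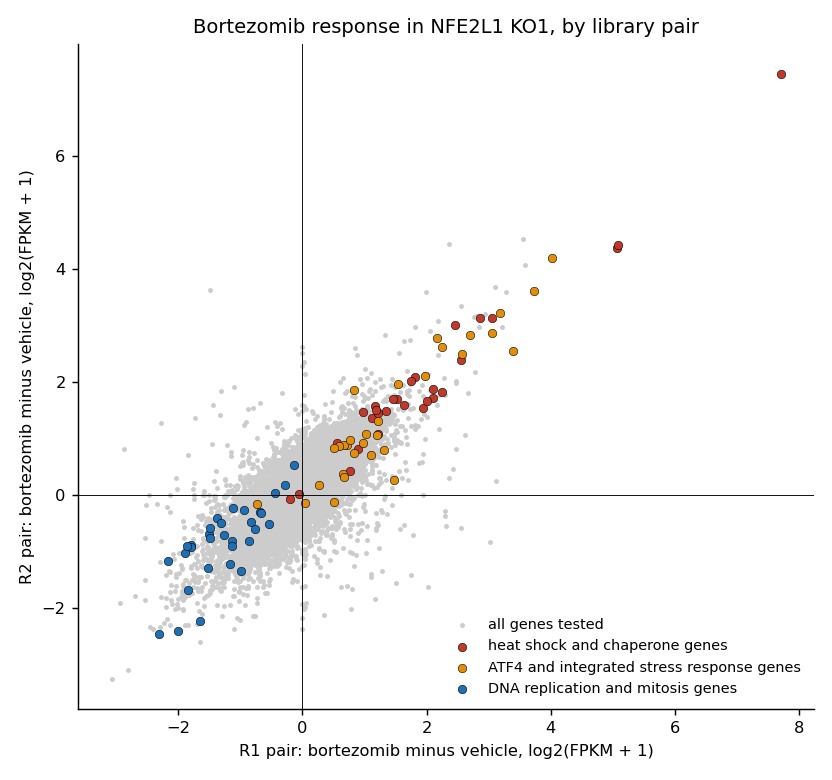
Each point is 1 gene of KO1, with the R1 pair's difference between bortezomib and vehicle on the horizontal axis and the R2 pair's on the vertical axis, both in log2(FPKM + 1). Grey points are the 12194 genes tested (r across genes 0.716), red points are heat shock and orange points integrated stress response genes, and HSPA6 is the red point farthest from the origin in both pairs, while the DNA replication and mitosis genes in blue lie mostly below 0 in both.

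The count of calls rested on the block. Without it 29 genes were called (0.238% of those tested, 19 higher, 0.156%, and 10 lower, 0.082%), and all 29 were also called with it. The 19 higher were HSPA6, HSPA1A, HSPA1B, ATF3, SESN2, DDIT3, PPP1R15A, GDF15, CHAC1, CXCL2, CXCL3, ZFAND2A, MAFF, MXD1, FAM129A, PGF, BEX2, DEDD2 and EPB41L4A-AS1. The 10 lower were HAS3, MKI67, KIFC1, PSRC1, PLCXD1, CASC10, CCNF, CDCA7, TRERF1 and RP11-554I8.2. With the block, leaving out 1 KO1 library gave 1322 to 2789 calls. The counts without the R2 vehicle library (1895), the R1 bortezomib library (1322) and the R2 bortezomib library (1327) were lower by over 1.5 times.

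The 21 gene lists were chosen with earlier results of these data known, so their counts describe the members and are not separate support. Among these lists, the chaperone genes had the highest median gain in KO1. Of the 29 heat shock and chaperone genes tested, 27 rose and none fell, where 13.9% of all genes rose, and the median log2 change of the list was 1.62 (1.64 in the R1 pair and 1.66 in the R2 pair). The genes of this list together took 1.26% of assigned reads in the R1 vehicle library and 4.70% in the R1 bortezomib library. In the R2 pair their share went from 0.675% to 2.37%. The 95% binomial (Wilson) intervals of all shares of reads given here were at most 0.0322 percentage points wide and cover counting error only. HSPA1L and HSPA2, HSP70 genes known for expression in testis, were the members that did not pass the test, with log2 changes of -0.14 and -0.02.

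The promoters of HSPA6, CHORDC1 and SERPINH1 are shown because these members hold the binding motif of heat shock factors next to their start sites. The motif searched was GAA, 2 free bases, TTC, 2 free bases and GAA, or the same with GAA and TTC exchanged. It was looked for on both strands in windows of 300 bases (250 before and 50 after the start) in RefSeq's promoter table (GRCh38.p14). It was found in 6 of the 27 members with a promoter in that table (22.2%) and in 0.49% of all 35116 promoters. The lines give the 250 bases before the start, 5′ to 3′ along the gene, with matches in capitals. HSPA6 lies at chr1:161524290-161524539, plus strand, CHORDC1 at chr11:90223050-90223299, minus strand, and SERPINH1 at chr11:75562003-75562252, plus strand. In CHORDC1 3 matches overlap in 1 stretch.
HSPA6: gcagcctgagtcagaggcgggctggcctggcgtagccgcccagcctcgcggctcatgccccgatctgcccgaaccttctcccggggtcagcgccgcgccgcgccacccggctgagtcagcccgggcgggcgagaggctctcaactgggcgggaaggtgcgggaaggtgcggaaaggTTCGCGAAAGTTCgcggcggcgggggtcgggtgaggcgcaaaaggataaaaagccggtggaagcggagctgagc
CHORDC1: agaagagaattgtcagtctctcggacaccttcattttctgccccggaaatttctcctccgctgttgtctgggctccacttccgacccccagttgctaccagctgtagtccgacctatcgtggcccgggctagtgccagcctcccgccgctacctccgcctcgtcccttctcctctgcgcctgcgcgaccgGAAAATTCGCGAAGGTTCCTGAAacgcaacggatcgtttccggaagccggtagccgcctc
SERPINH1: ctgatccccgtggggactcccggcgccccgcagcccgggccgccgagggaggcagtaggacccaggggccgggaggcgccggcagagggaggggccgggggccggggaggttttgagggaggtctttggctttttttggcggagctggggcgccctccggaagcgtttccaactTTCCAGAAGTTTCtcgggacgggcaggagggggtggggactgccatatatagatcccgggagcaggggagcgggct

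HSPA6 (ENSG00000173110, chr1:161524540-161526910, plus strand), an HSP70 gene that is nearly silent in unstressed cells, had an FPKM of 0.365 (R1) and 0.273 (R2) with vehicle and 284 (R1) and 221 (R2) with bortezomib. The bortezomib libraries lay far above the vehicle libraries, and the log2 change of 7.58 (SE 0.19, limma adjusted p 2.12e-07) was the highest of all genes tested. The other inducible HSP70 genes, HSPA1A and HSPA1B, are near-identical neighbours on chromosome 6, so the division of reads between them is uncertain. HSPA1A read 58.8 (R1) and 42.1 (R2) with vehicle and 2000 (R1) and 886 (R2) with bortezomib (log2 change 4.71). HSPA1B read 25.1 (R1) and 20.4 (R2) with vehicle and 878 (R1) and 459 (R2) with bortezomib (log2 change 4.75). In both, the R1 bortezomib level was higher than the R2 level, and all bortezomib values exceeded all vehicle values.

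Of 35 genes of the DNAJ family of HSP70 co-chaperones, a family picked after the values were seen, 14 rose and 2 fell (45.7% called against 27.7% of all genes), with a median log2 change of 0.21. DNAJB1, a member that stimulates HSP70, went from 48 and 20.9 to 408 and 189.6 FPKM (R1 and R2; log2 change 3.09, SE 0.18, limma adjusted p 3.11e-05). BAG3, a nucleotide exchange factor that directs clients to autophagy, went from 61.7 and 25.1 to 456 and 227 (log2 change 3.00, SE 0.20, limma adjusted p 4.09e-05). HSPH1, an HSP110 chaperone, had a log2 change of 2.47, and the small heat shock protein gene HSPB1 one of 2.73. The HSP90 genes were already abundant with vehicle: HSP90AA1, the inducible form, went from 571 and 302 to 2450 and 1114 FPKM (log2 change 1.99) and HSP90AB1, the constitutive form, from 759.8 and 451 to 1770 and 955 (log2 change 1.15). CHORDC1, an HSP90 co-chaperone, gained 1.83, and SERPINH1, the collagen chaperone of the endoplasmic reticulum, 1.62. Heat shock factor HSF1 rose by 0.74, a smaller gain than those of most of the chaperones (limma adjusted p 0.00771). Genes on the same strand overlap HSPA6 and HSPA1B, and one on the opposite strand overlaps HSP90AA1, so part of their reads could be a neighbour's. In the fit with no block the calls in this list were the HSP70 genes HSPA6, HSPA1A and HSPA1B.

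**Figure D2:**
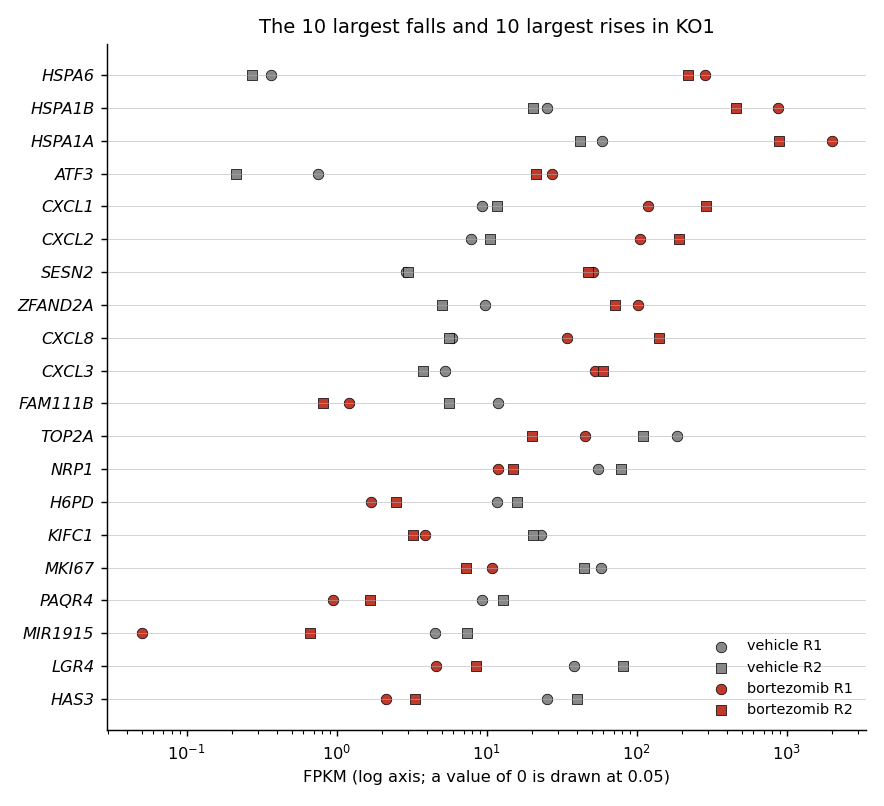
FPKM (log axis) in each of the 4 KO1 libraries for the 10 largest falls and 10 largest rises among called genes with an official symbol. Grey marks vehicle and red bortezomib, circles R1 and squares R2, and in all 20 genes the red and grey points do not overlap. MIR1915 at 0 is drawn at 0.05.

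Genes for ubiquitin and for its autophagy receptors also rose. Of 24 tested, 14 rose and none fell (58.3% called, against 27.7% of all genes), with a median log2 change of 0.72. Their summed share of reads went from 0.394% to 1.05% (R1) and from 0.203% to 0.563% (R2). UBB, which encodes a chain of ubiquitin units, had an FPKM of 66.3 (R1) and 16.4 (R2) with vehicle and 215 (R1) and 61.3 (R2) with bortezomib (log2 change 1.76, SE 0.30, limma adjusted p 0.00354), and its R2 bortezomib value lay below its R1 vehicle value, so its groups overlapped although both pairs rose. RPS27A, which encodes ubiquitin fused to a ribosomal protein, had a log2 change of 0.63 and did not pass the test (limma adjusted p 0.126). ZFAND2A, an arsenite-inducible regulator of the proteasome, went from 9.7 and 5.03 to 103 and 71.6 (log2 change 3.43, SE 0.14, limma adjusted p 6.34e-06). GABARAPL1, an ATG8-family protein of the autophagosome, went from 1.73 and 0.896 to 14.1 and 6.46 (log2 change 2.22). MAP1LC3B rose by 1.36, the kinase gene ULK1 by 1.44 and the receptor SQSTM1 (p62) by 0.83. ZFAND2A has an overlapping gene on the opposite strand. ZFAND2A was the member called without the block, and 8 members were called without the R1 bortezomib library.

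The integrated stress response, in which phosphorylation of eIF2 alpha favours the translation of ATF4, gave the next highest list. Of 31 genes tested, 25 rose and none fell (80.6% called, against 27.7% of all genes). The median log2 change was 1.05 (1.11 in R1, 0.97 in R2), and the share of reads went from 0.501% to 1.03% (R1) and from 0.827% to 1.36% (R2). ATF3, a transcription factor of this response, had an FPKM of 0.749 (R1) and 0.213 (R2) with vehicle and 27.3 (R1) and 21.2 (R2) with bortezomib (log2 change 4.11, SE 0.18, limma adjusted p 6.34e-06). Its vehicle levels were under 1 FPKM and its bortezomib levels above 20. SESN2, a leucine sensor that restrains mTORC1, was close in the replicates, at 2.9 (R1) and 2.96 (R2) with vehicle and 50.8 (R1) and 47.2 (R2) with bortezomib (log2 change 3.67). GDF15, a secreted stress cytokine, went from 9.7 and 16.9 to 95.8 and 166 (log2 change 3.20).

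DDIT3, which encodes the transcription factor CHOP, went from 2.73 and 3.02 to 38.2 and 22.4 FPKM (log2 change 2.97, SE 0.27, limma adjusted p 0.00022). PPP1R15A, the GADD34 subunit that dephosphorylates eIF2 alpha, went from 14.3 and 12.6 to 127 and 97.1 (log2 change 2.96). The gene for the pseudokinase TRIB3 gained 2.76, the secreted glycoprotein STC2 2.53, the mTORC1 inhibitor DDIT4 2.47 and the glutathione-cleaving enzyme CHAC1 2.43. ATF4 itself changed less in transcript, from 95.6 and 51.2 to 158 and 94.7 FPKM (log2 change 0.80). In the metabolic arm, MTHFD2, of mitochondrial one-carbon metabolism, rose by 2.04 and PSAT1, of serine synthesis, by 1.26. Asparagine synthetase ASNS, at 0.291 and 0.653 FPKM with vehicle, rose by 0.78, a change that the added 1 understates. The amino acid transporter genes SLC7A11 and SLC38A2 had log2 changes of 0.20 and -0.05 (limma adjusted p 0.508 and 0.809). Of this list, 6 genes were called without the block.

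The unfolded protein response of the endoplasmic reticulum was called in part. Of 22 genes, 8 rose and none fell (36.4% called, against 27.7% of all genes), with a median log2 change of 0.22. HSPA5, the BiP chaperone, had an FPKM of 284 (R1) and 412 (R2) with vehicle and 826 (R1) and 1174 (R2) with bortezomib (log2 change 1.52, SE 0.14, limma adjusted p 0.000245), with every bortezomib value above every vehicle value. HERPUD1, a scaffold of endoplasmic reticulum-associated degradation, gained 1.73, the transcription factor gene XBP1 1.37 and the sensor ERN1 1.31. The abundant foldases PDIA3, PDIA4 and PDIA6 and the lectin chaperones CALR and CANX had log2 changes from -0.33 to 0.11 and did not pass the test. Leaving out the R1 vehicle library or either bortezomib library left 5 calls in each case. With no block, no member passed.

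A C/EBP-ATF element, written as TGATGCAA, was searched on both strands in the same 300-base windows. It was found in 1 of 25 promoters of the integrated stress response list (4.0%) and in 1 of 21 of the unfolded protein response list (4.76%). Shares were 0.866% of all promoters, 0.378% of genes tested and 0.65% of genes called higher. The ribosomal protein list had 1 of 22 (4.55%) and the BCL2 family list 1 of 10 (10.0%). Their holders, RPS23 and BCL2A1, had log2 changes of 0.03 and -0.19 and did not pass the test. The promoters of CHAC1 (chr15:40953221-40953470, plus strand) and HERPUD1 (chr16:56931892-56932141, plus strand), among the rises above, are given as the 250 bases before the start. The match is in capitals (RefSeq, GRCh38.p14).
CHAC1: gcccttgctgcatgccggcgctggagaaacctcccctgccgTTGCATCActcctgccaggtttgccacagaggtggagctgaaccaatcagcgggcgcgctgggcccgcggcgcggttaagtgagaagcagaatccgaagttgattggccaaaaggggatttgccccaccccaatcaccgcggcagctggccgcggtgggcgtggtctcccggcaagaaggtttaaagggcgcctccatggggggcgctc
HERPUD1: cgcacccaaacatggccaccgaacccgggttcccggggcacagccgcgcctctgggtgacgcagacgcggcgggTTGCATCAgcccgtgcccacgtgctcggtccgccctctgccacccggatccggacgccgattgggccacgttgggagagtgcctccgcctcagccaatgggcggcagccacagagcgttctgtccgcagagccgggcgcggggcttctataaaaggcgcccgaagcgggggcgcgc

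CXC chemokine genes were among the 10 largest rises in KO1. Of 22 NF-kappaB target and chemokine genes, 11 rose and 2 fell (59.1% called, against 27.7% of all genes). The median log2 change was 0.62 (0.40 in R1, 0.79 in R2). CXCL1 (ENSG00000163739, chr4:73869393-73871242, plus strand), a neutrophil-attracting ligand of CXCR2, had an FPKM of 9.28 (R1) and 11.6 (R2) with vehicle and 119 (R1) and 291 (R2) with bortezomib (log2 change 4.04, SE 0.22, limma adjusted p 1.92e-05). Its neighbour CXCL2 had 7.88 (R1) and 10.4 (R2) with vehicle and 105 (R1) and 192 (R2) with bortezomib (log2 change 3.83). CXCL3 had 5.26 (R1) and 3.74 (R2) with vehicle and 52.8 (R1) and 59.8 (R2) with bortezomib (log2 change 3.39). These 3 are close paralogs on chromosome 4, and the split of reads among them is uncertain. CXCL8, the interleukin 8 gene, went from 5.89 and 5.57 to 34.3 and 142 FPKM, a wider spread between the bortezomib libraries (log2 change 3.40, SE 0.41, limma adjusted p 0.000764). CXCL5, the most abundant of these ligands with vehicle, had a log2 change of -0.34 (limma adjusted p 0.401).

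The regulators of NF-kappaB moved less. RELB, a subunit of the non-canonical pathway, rose by 1.46 and NFKB2 by 0.91, and RELA rose by 0.78. The inhibitor gene NFKBIA, itself a feedback target, went from 38.7 and 17.1 to 15.8 and 16.6 and did not pass the test (limma adjusted p 0.114). TNFAIP2 fell by 1.55 and LIF, an interleukin 6-family cytokine, by 0.82. Leaving out the R2 bortezomib library gave 6 calls higher in this list. CXCL2 and CXCL3 were called without the block, and CXCL1 had a limma adjusted p of 0.0703 there.

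A kappaB motif (GGGA, 1 free base, TTTCC), chosen after the chemokine values were seen, was found on either strand in 9 of 18 promoters of this list and in 0.558% of all promoters. The sequences of CXCL1 (chr4:73869143-73869392, plus strand), CXCL2 (chr4:74099196-74099445, minus strand) and CXCL3 (chr4:74038690-74038939, minus strand) are set out because these genes rose together and hold the motif (capitals). They are the 250 bases before the start from RefSeq, GRCh38.p14. CXCL5 and NFKBIA, which did not pass the test, hold it too. The remaining holders, TNFAIP3, NFKBIZ, NFKB1 and REL, had log2 changes of 0.63, 0.17, 0.15 and 0.07.
CXCL1: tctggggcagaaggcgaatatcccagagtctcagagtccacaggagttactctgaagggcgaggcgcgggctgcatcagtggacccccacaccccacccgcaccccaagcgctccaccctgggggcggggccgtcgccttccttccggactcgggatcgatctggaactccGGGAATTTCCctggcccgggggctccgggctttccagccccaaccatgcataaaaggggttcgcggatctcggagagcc
CXCL2: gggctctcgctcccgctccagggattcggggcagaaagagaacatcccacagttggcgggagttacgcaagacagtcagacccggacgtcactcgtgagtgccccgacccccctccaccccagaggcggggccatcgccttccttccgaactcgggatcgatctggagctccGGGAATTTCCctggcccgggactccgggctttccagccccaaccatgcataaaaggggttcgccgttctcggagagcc
CXCL3: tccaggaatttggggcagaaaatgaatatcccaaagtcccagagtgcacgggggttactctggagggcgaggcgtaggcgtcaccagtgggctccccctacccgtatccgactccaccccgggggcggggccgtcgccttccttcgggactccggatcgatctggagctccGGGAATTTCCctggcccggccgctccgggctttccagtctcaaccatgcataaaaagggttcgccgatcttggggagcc

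Of 19 immediate early and AP-1 genes, which serum and stress signals switch on, 9 rose and 1 fell (52.6% called, against 27.7% of all genes). The median log2 change was 0.66, at 0.33 in R1 and 0.92 in R2. DUSP1, a phosphatase that switches off MAP kinases, had an FPKM of 26.7 (R1) and 12.7 (R2) with vehicle and 191 (R1) and 122 (R2) with bortezomib (log2 change 2.98, SE 0.18, limma adjusted p 3.42e-05), with no overlap of the groups. MAFF, a small MAF protein and a dimer partner of NFE2L1, went from 1.56 and 0.95 to 9.15 and 7.59 (log2 change 2.06). IER3 rose by 1.52, JUN by 1.48 and MYC by 1.08, while JUNB, JUND and KLF4 had log2 changes of -0.15, 0.12 and 0.15 and did not pass. IER2 fell by 0.96. Without the R2 vehicle or the R2 bortezomib library 5 members rose, and without the R1 bortezomib library 6. FOS, FOSB, EGR1, EGR2 and EGR3 were under the mean FPKM of 1 and were not tested.

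Targets of p53, the transcription factor that halts the cell cycle after damage, rose in 16 of 24 genes tested, and none fell. That was 66.7% called, against 27.7% of all genes, with a median log2 change of 0.77. Their share of reads went from 0.150% to 0.346% (R1) and from 0.154% to 0.360% (R2). CDKN1A, the p21 inhibitor of cyclin-dependent kinases, had an FPKM of 23.9 (R1) and 13.5 (R2) with vehicle and 112 (R1) and 79.7 (R2) with bortezomib (log2 change 2.33, SE 0.18, limma adjusted p 0.000123). GADD45A went from 11 and 6.92 to 75.2 and 26.7 (log2 change 2.24) and TP53INP1, which links p53 to autophagy, from 1.81 and 1.8 to 9.87 and 8.38 (log2 change 1.85). TNFRSF10B, the death receptor DR5, rose by 1.44 and MDM2, the ubiquitin ligase of p53, by 1.27. None was called without the block.

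Of 13 BCL2 family genes, 5 rose and none fell (38.5% called, against 27.7% of all genes). The risers were PMAIP1 (NOXA), from 12.5 and 6.96 to 50.3 and 29.4 FPKM (log2 change 1.93), BBC3 (PUMA) by 1.31, BID by 1.02, BAX by 0.81 and BOK by 0.65, all of which encode proteins that favour cell death. The survival genes MCL1 and BCL2L1 had log2 changes of 0.05 and 0.34 and did not pass (limma adjusted p 0.9 and 0.112). BAX and BBC3 are also p53 targets and are in both lists.

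**Figure D3:**
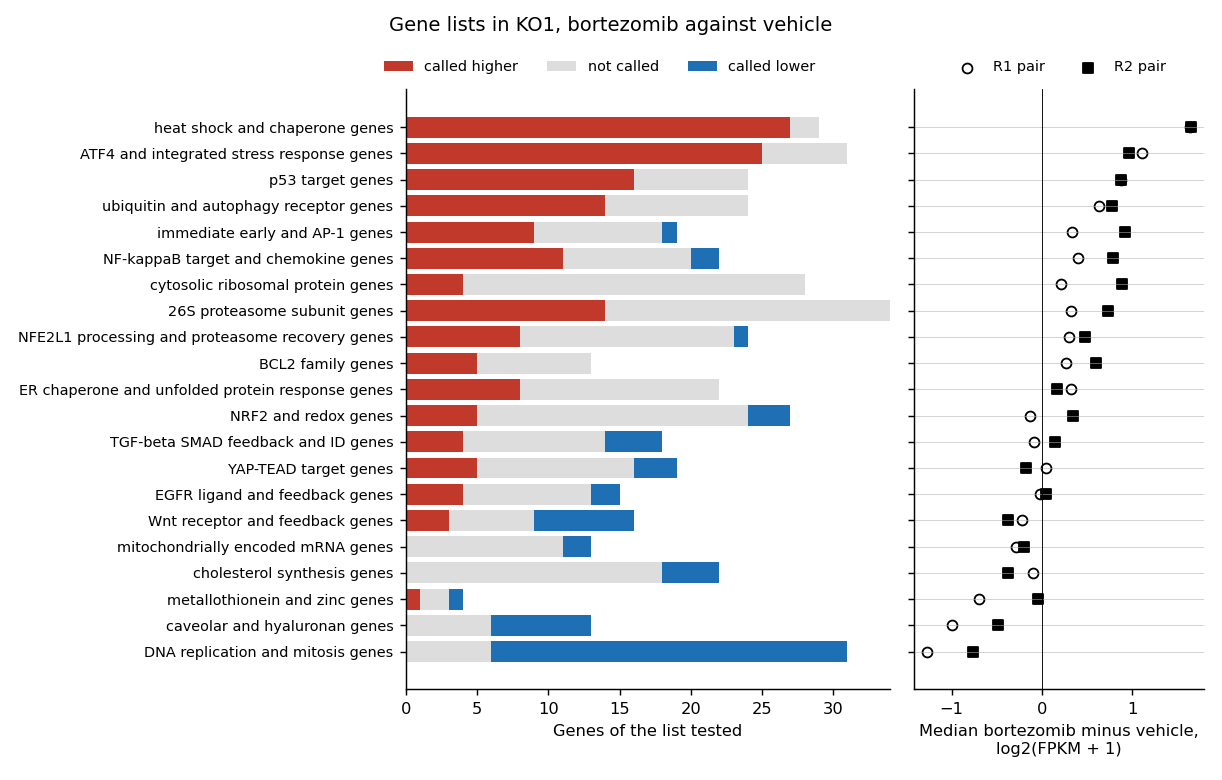
The left bars give, for each of the 21 gene lists, the number of members tested that were called higher (red), not called (grey) or called lower (blue) in KO1. The right panel gives the list's median difference between bortezomib and vehicle in the R1 pair (open circles) and the R2 pair (squares), and the heat shock list is highest at 1.64 and 1.66.

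Proteasome subunit genes, the best-known targets of NFE2L1, rose in part in KO1, with a median change below those of the heat shock and integrated stress response lists. Of the 36 genes listed 34 were tested, 14 rose (background 13.9%) and none fell, and the other 20 did not pass. The median log2 change was 0.49, at 0.33 in the R1 pair and 0.73 in the R2 pair, and the summed share of reads went from 0.410% to 0.565% and from 0.173% to 0.271%. PSMC2, an ATPase of the 19S base, had an FPKM of 30.6 (R1) and 8.89 (R2) with vehicle and 57.9 (R1) and 20.6 (R2) with bortezomib (log2 change 1.01, SE 0.18, limma adjusted p 0.00394). Both pairs rose, but the R2 bortezomib value lay below the R1 vehicle value, so the groups overlapped. PSMC4, another ATPase, went from 67.8 and 25.1 to 115 and 49.3 (log2 change 0.85).

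The called members came from most parts of the particle. In the 19S lid and base they included PSMD14, the deubiquitinase, by 0.85, PSMD11 by 0.83, the ubiquitin receptor PSMD4 by 0.72 and the ATPase PSMC6 by 0.80. In the 20S core they were PSMB7, which holds the trypsin-like site, by 0.84, PSMB4 by 0.79 and the alpha subunit PSMA5 by 0.68. PSMB5, the subunit that bortezomib binds, went from 78.4 and 26.7 to 84 and 46.4 and did not pass (log2 change 0.43, limma adjusted p 0.129). The immunoproteasome subunits PSMB8, PSMB9 and PSMB10 had log2 changes of 0.37, -0.23 and 0.10, none past the threshold. No member was called without the block. Leaving out the R1 vehicle library gave 20 calls, the R2 vehicle library 4, the R1 bortezomib library 2 and the R2 bortezomib library 7, so this count depended on each library.

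Cytosolic ribosomal protein genes gave a reference of abundant housekeeping transcripts. Their median log2 change was 0.55, at 0.22 in R1 and 0.89 in R2, a size like that of the proteasome list, and 4 of 28 rose (14.3%, against 13.9% of all genes) with none lower. With voom on recovered reads and the block, 19 of the 28 were called. Leaving out the R1 vehicle library gave 13 calls, and leaving out each of the other KO1 libraries gave 0 or 1. RPS19 and RPS9 changed by 0.84 each. The R2 difference was above the R1 difference in all 28 ribosomal protein genes and in 25 of 34 proteasome genes, against 7240 of the 12194 genes tested. The R2 libraries are those with the higher mitochondrial share, and its part in these differences was not tested.

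**Figure D4:**
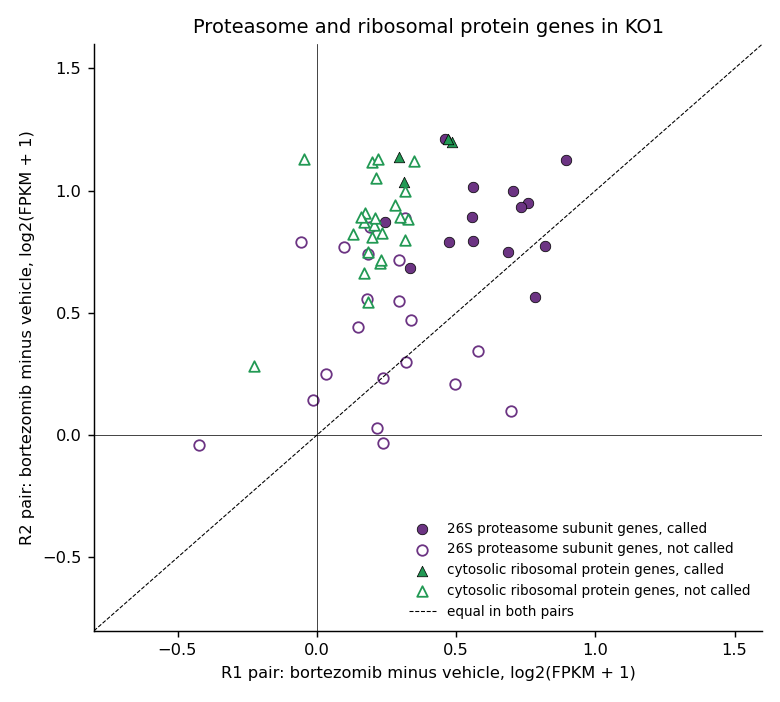
Difference between bortezomib and vehicle in the R1 pair (horizontal) and the R2 pair (vertical), in log2(FPKM + 1), for 34 proteasome genes (circles) and 28 ribosomal protein genes (triangles). Filled symbols were called, and the ribosomal protein genes lie above the dashed line of equal change.

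Genes that process or partner NFE2L1 were also measured. Of 24 in this list, 8 rose and 1 fell (37.5% called, against 27.7% of all genes), with a median log2 change of 0.36. The small MAF partners rose together: MAFF by 2.06, MAFK by 1.41 (from 15.5 and 23.2 to 41.7 and 64.6 FPKM) and MAFG by 0.89. The VCP cofactor NPLOC4 rose by 0.91, while VCP itself had a log2 change of 0.40 (limma adjusted p 0.0689). The protease DDI2 and the deglycosylase NGLY1, at FPKM values of 1.87 to 4.87 in KO1, had log2 changes of -0.08 and 0.21 and did not pass. The related factor NFE2L2 (NRF2) rose by 0.67. Leaving out 1 KO1 library gave 4 (R2 bortezomib) to 5 rises in this list, or 12 without the R1 vehicle library. PSMG3, an assembly chaperone, fell by 0.65, and PSMG2, of another chaperone pair, rose by 0.67.

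The antioxidant response element (TGAC, 3 free bases, GC, on either strand) was in 7 of 28 promoters of proteasome genes (25.0%). It was in 15.5% of promoters of genes tested and in 13.3% of all promoters. The integrated stress response list had 32.0%, the replication and mitosis list, which fell, 22.2%, and the cholesterol synthesis list 6.25%. The proteasome genes that hold it were PSMC4, PSMD12, PSMB3, PSMD3, PSMD1, ADRM1 and PSMB9. Their log2 changes ran from 0.85 (PSMC4) to -0.23 (PSMB9). A match here is a description of letters, not of binding.

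NRF2 and redox genes went both ways. Of 27, 5 rose and 3 fell, 29.6% called against 27.7% of all genes. OSGIN1, an oxidative stress-induced growth inhibitor, went from 10.6 and 13.6 to 41.3 and 32.9 FPKM (log2 change 1.54), ME1, an NADPH-producing malic enzyme, rose by 1.16 and heme oxygenase HMOX1 by 1.12. GCLM, the modifier subunit of glutathione synthesis, rose by 0.83. The efflux pump ABCC3 fell by 1.19 (from 64.8 and 156 to 26.4 and 71.8 FPKM), as did ABCC2 (from 93.2 and 261 to 44.1 and 123), and the aldo-keto reductase AKR1C3 fell by 0.99. NQO1 had a log2 change of -0.11 (limma adjusted p 0.731). Of 10 metallothionein and zinc genes 4 were tested, and MTF1, the metal-sensing transcription factor, rose by 0.51. The metallothionein MT2A, a metal-binding protein, went from 200 and 35.4 to 44.9 and 28.3 FPKM (log2 change -1.22, SE 0.39, limma adjusted p 0.0434), where its R2 vehicle value lay below the R1 bortezomib value.

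HAS3, LGR4 and NRP1, which encode proteins of the cell surface, were among the 10 largest falls. HAS3 (ENSG00000103044, chr16:69105564-69118719, plus strand), a hyaluronan synthase, had an FPKM of 25.2 (R1) and 40.2 (R2) with vehicle and 2.12 (R1) and 3.32 (R2) with bortezomib (log2 change -3.16, SE 0.23, limma adjusted p 7.39e-05), the largest fall of all genes tested. LGR4, a receptor for R-spondins that strengthens Wnt signalling, went from 38.1 and 80.7 to 4.56 and 8.52 (log2 change -2.96). NRP1, a co-receptor for semaphorins and VEGF, went from 55.4 and 78.1 to 11.8 and 14.9 (log2 change -2.23). HAS3, LGR4 and NRP1 each have an overlapping gene on the opposite strand, and NRP1 also has one on the same strand. The groups of all 3 did not overlap. PAQR4, from 9.33 and 12.9 to 0.942 and 1.66 FPKM (log2 change -2.40), and the endoplasmic reticulum enzyme gene H6PD, from 11.7 and 15.8 to 1.69 and 2.5 (log2 change -2.25), were also among the 10 largest falls. MIR1915, which lies inside a host gene on the same strand, was listed at 0 in the R1 bortezomib library.

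Of 13 caveolar and hyaluronan genes, 7 fell and none rose, where 13.8% of all genes fell (median log2 change -0.74). This list, which holds HAS3, was chosen with earlier results of these data known, so its count of falls is not separate support. CAV1, the scaffold of caveolae, had an FPKM of 179 (R1) and 172 (R2) with vehicle and 49.2 (R1) and 33.8 (R2) with bortezomib (log2 change -2.08, SE 0.22, limma adjusted p 0.000441). Its partner CAV2 fell by 1.10, the hyaluronidase gene HYAL2 by 1.23 and the synthase HAS2 by 0.90. CD44, the hyaluronan receptor, had a log2 change of -0.48 and did not pass. Without the R2 bortezomib library 4 members fell. HAS3 was the member called without the block.

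Wnt receptors and feedback genes fell in 7 of 16 and rose in 3 (62.5% called, against 27.7% of all genes). FZD2, a frizzled receptor, went from 42.2 and 74.6 to 12.3 and 14.5 FPKM (SE of the log2 change 0.21, limma adjusted p 0.000437), the co-receptor genes LRP5 and LRP6 fell by 1.59 and 0.83, and FZD1 and FZD5 fell by 0.61 and 0.95. The intracellular inhibitors AXIN1, AXIN2 and NKD2 rose by 0.96, 0.72 and 1.14. So the members called lower were LGR4, FZD1, FZD2, FZD5, LRP5, LRP6 and TCF7L2, a transcription factor of the pathway. Those called higher were the inhibitors AXIN1, AXIN2 and NKD2. The other 6 members tested did not pass, so this split describes called members only. CTNNB1, which encodes beta-catenin, had a log2 change of -0.17 (limma adjusted p 0.452).

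Counts in other receptor pathways were small and went both ways, where 13.9% of all genes rose and 13.8% fell. Of 18 TGF-beta and ID genes, 4 rose and 4 fell (44.4% called): the receptor TGFBR2 fell by 1.66 and the differentiation inhibitor ID2 by 0.88, while ID3 rose by 1.31 and SMURF1 by 0.80. Of 15 EGFR ligand and feedback genes, 4 rose and 2 fell (40.0% called). The ligands HBEGF, from 3.41 and 3.27 to 11.3 and 13.6 FPKM, EREG, from 102 and 180.2 to 295 and 391.8, and AREG rose by 1.62, 1.32 and 0.48, whereas EGFR had a log2 change of 0.10 and did not pass. The feedback gene SPRY2 fell by 0.90. Of 19 YAP-TEAD targets, 5 rose and 3 fell (42.1% called). The matricellular genes CYR61 and CTGF rose by 1.69 and 0.83 and ANKRD1 by 1.52, and the receptor kinase AXL fell from 91.6 and 114 to 32.4 and 38.8 FPKM, and FJX1 fell by 1.85.

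DNA replication and mitosis genes fell as a group. Of 31, 25 fell and none rose, where 13.8% of all genes fell, and the median log2 change was -1.02 (-1.27 in R1 and -0.76 in R2). Their summed share of reads went from 0.697% to 0.254% (R1) and from 0.397% to 0.169% (R2). MKI67, a proliferation marker of the chromosome surface, had an FPKM of 57.4 (R1) and 44.7 (R2) with vehicle and 10.8 (R1) and 7.29 (R2) with bortezomib (log2 change -2.38, SE 0.15, limma adjusted p 3.97e-05). TOP2A, the topoisomerase of chromosome condensation, went from 185 and 111 to 45.4 and 20 (log2 change -2.21). In bulk RNA, fewer cells in a cell-cycle phase and less RNA per cell cannot be told apart.

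After MKI67 and TOP2A, the largest falls in the list were in mitotic genes. CENPF, a kinetochore protein, fell by 1.95, the kinase AURKB by 1.76 and the kinesin KIF20A by 1.67. KIFC1, a kinesin outside the list and among the 10 largest falls, went from 23 and 20.3 to 3.89 and 3.2 FPKM (log2 change -2.32). Of the G1 and S phase genes, cyclin D1 (CCND1) fell by 1.34, from 109 and 50.4 to 30.8 and 26.7 FPKM, and PCNA by 0.89. MCM3, MCM4 and MCM6 of the replicative helicase fell by 1.10, 1.13 and 0.99, while MCM2, MCM5 and MCM7 did not pass (limma adjusted p 0.055, 0.0619 and 0.472). E2F1 had a log2 change of -0.05. FAM111B, an S-phase protease gene outside the list, fell by 2.20. MKI67 was the member called without the block, and with the block the list had 14 calls without the R1 bortezomib library and 17 to 25 without each of the other KO1 libraries.

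Of 22 cholesterol synthesis genes, 4 fell and none rose (18.2% called, against 27.7% of all genes; 7 called with voom and the block), among them the sterol isomerase gene EBP by 0.93, the mevalonate kinase gene MVK by 0.72 and LSS by 0.61. Of 13 mitochondrially encoded mRNAs, 2 fell (15.4% called), MT-ND5 by 0.54 and MT-ND6 by 0.44, and the median was -0.26. In absolute FPKM the largest falls outside the mitochondrial genome were in IGFBP4, from 1010 and 1289 to 564 and 708 (log2 change -0.85), TMSB4X, from 729 and 187 to 193 and 110.2 (log2 change -1.34, groups overlapping), and S100A6, from 621 and 417 to 408 and 299.9 (log2 change -0.54).

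The response of KO1 was then set against that of the control line, to ask whether the knockout line responded differently. The test of the difference called 5 of 12194 genes (0.041%), with 4 responses higher in KO1 (0.0328%) and 1 lower (0.0082%), and 1232 genes had an unadjusted p under 0.05. CXCL1 changed by 4.04 in KO1 and by 1.14 in the control line (difference 2.90, SE 0.31, limma adjusted p 0.0367). In the control line its FPKM went from 1.17 (no suffix) and 7.01 (R2) to 4.33 and 14.8, and all 4 control values lie below both KO1 bortezomib values. CXCL3 changed by 3.39 against 0.47 (difference 2.92, limma adjusted p 0.0367), from 0.965 (no suffix) and 3.21 (R2) to 2.15 and 4.02 FPKM in the control line. CXCL2 changed by 3.83 against 1.76 (difference 2.07, limma adjusted p 0.0376), from 2.13 (no suffix) and 6.49 (R2) to 11.3 and 20.7 FPKM there. The changes in KO2 were 2.41 for CXCL1, 2.32 for CXCL3 and 2.87 for CXCL2, between those of the other lines.

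DKK1, a secreted Wnt antagonist, had FPKM values in KO1 of 97.7 (R1) and 194 (R2) with vehicle and 115 (R1) and 163 (R2) with bortezomib, one pair a little higher and the other a little lower with bortezomib (log2 change -0.01). In the control line it went from 62.5 (no suffix) and 292 (R2) to 17.3 and 65.7 FPKM (log2 change -1.97, difference 1.96, limma adjusted p 0.0446). MYH14, a non-muscle myosin heavy chain, went from 2.45 (no suffix) and 1.62 (R2) to 22.1 and 13.4 FPKM in the control line and from 0.08 and 0.0109 to 0.543 and 0.289 in KO1, where it stayed under 1 FPKM. On the log2(FPKM + 1) scale its change was 2.60 in the control line and 0.43 in KO1 (difference -2.17, limma adjusted p 0.0376). With voom on recovered reads, which adds no 1 to the FPKM, the difference for MYH14 was 0.32 and did not pass (limma adjusted p 0.904). DUSP1 just missed the threshold, at 2.98 in KO1 and 0.96 in the control line (difference 2.03, limma adjusted p 0.0517). Its bortezomib values were alike in both lines, and the vehicle values were lower in KO1 (from 103 (no suffix) and 61 (R2) to 194 and 124 FPKM in the control line).

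**Figure D5:**
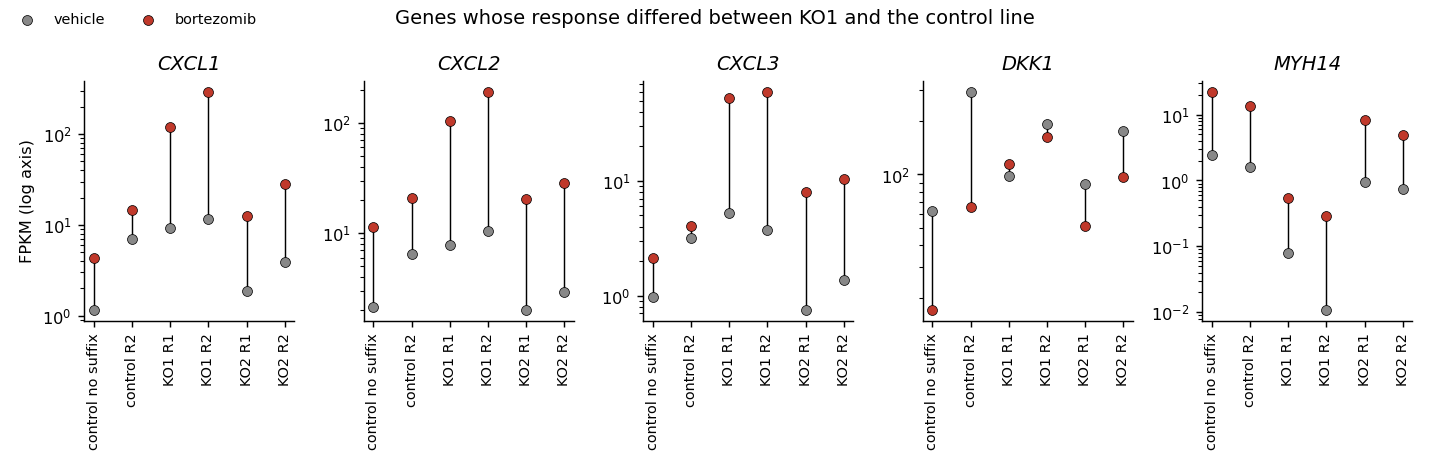
FPKM (log axis) with vehicle (grey) and bortezomib (red) in each suffix pair of the control line, KO1 and KO2, for the genes whose response differed between KO1 and the control line. The lines joining CXCL1, CXCL2 and CXCL3 reach their highest values in KO1, DKK1 falls in the control line but not in both KO1 pairs, and MYH14 is lowest in KO1.

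None of the 5 differences passed without the block, where 0 genes were called and the limma adjusted p of each was 1. Leaving out any 1 of the 4 control libraries also gave 0 calls, as did leaving out the R2 vehicle or the R2 bortezomib library of KO1, with control leave-outs giving CXCL1 differences of 2.74 to 3.06. No proteasome gene differed between KO1 and the control line by this test. Of the 34, 22 had a lower log2 change in KO1 than in the control line and 12 a higher one, with list medians of 0.49 and 0.64. At an unadjusted p under 0.05 (limma) were 3 of the 34, all lower in KO1, against 1232 of 12194 genes tested, 581 of them higher in KO1. Among all genes tested the response was lower in KO1 than in the control line in 5756 and higher in 6433. The largest gaps within the list were PSMD12, at 0.67 in KO1 and 1.31 in the control line, PSMC6, at 0.80 and 1.41, and PSMC4, at 0.85 and 1.43 (limma adjusted p of the difference 0.385, 0.351 and 0.464). The SE of these differences was 0.23, 0.21 and 0.24, so gaps of this size in single subunits were not detectable after adjustment over all genes. The heat shock list had medians of 1.62 in KO1 and 1.43 in the control line, and the integrated stress response list 1.05 and 0.93, with no member called for the difference. All 28 ribosomal protein genes had a higher log2 change in KO1, with medians of 0.55 in KO1 and 0.17 in the control line. For this difference, 0 of the 28 had an unadjusted p under 0.05 (limma).

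Against KO2 the difference in response called 0 of 12194 genes with limma (280 at an unadjusted p under 0.05, smallest adjusted p 0.673) and 0 with voom and the block (209 at an unadjusted p under 0.05). List medians in KO2 were 1.77 for the heat shock list, 1.06 for the integrated stress response, 0.48 for the proteasome and -1.22 for replication and mitosis. NFE2L1 changed by 1.39 in KO1 and 0.76 in KO2. CXCL1, at 4.04 and 2.41, had an unadjusted p of 0.000521 for the difference and an adjusted p of 1 in limma.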

How the data were processed

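RNA sequencing was deposited as 1 table of FPKM values for 58676 genes in 12 libraries. The authors made these FPKM values with tools that the submitters' processing notes name as CASAVA, STAR 2.5, HTSeq 0.6.1 and DESeq2, with hg19, without giving role or order. The deposited coordinates match GENCODE 29 on GRCh38 for 95.3% of gene identifiers, and coordinates are given on that build. Strand setting and annotation are not given in the sources used here. FPKM times gene length came out as whole reads (tolerance 0.02), which gave 13211608 to 23819258 assigned reads per library. No value column was left unmapped (0).

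From the FPKM, log2(FPKM + 1) was tested with limma 3.58.1 (R 4.3.3, trend) over all 12 libraries, with 6 group means and a block for the title suffix, on the 12194 genes whose mean FPKM was 1 or more, at a Benjamini-Hochberg adjusted p under 0.05. The pairing was checked with the difference, in each group, of the R2 library minus the other library. These differences correlated across genes at 0.843 between the KO1 groups and at 0.696 to 0.89 (median 0.811) over all 15 pairs of groups. Some of these pairs set control libraries with no suffix beside R1 libraries, so they do not check same-suffix pairing. An exact permutation of 2 against 2 libraries cannot give a p below 0.333, so none is given. The method was tested on simulated data built with the fitted block effects, so that test cannot judge the choice of the block. The alternatives were the block, filters, pseudocount, scaling, voom on recovered reads and each KO1 or control library left out.

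Genes were named by rule: the 10 largest rises and falls, the 5 largest by FPKM difference, the 3 highest and 2 lowest of each list, and the 5 lowest p-values in each direction of the differences between lines. Not all of these are printed, and other list members were added after their values were seen. The members and lists were chosen with earlier results of these data known. Lists share a few members. Promoters matched 8472 of the 12194 genes. A few list members are not reported here.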

Additional observations from a re-analysis of the deposited data

Results flagged for a closer look

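A difference in the response to bortezomib between KO1 and the control line, tested as an interaction in limma, flagged 5 genes. CXCL1, CXCL2 and CXCL3 rose more in KO1, by 2.90, 2.07 and 2.92 on the log2(FPKM + 1) scale. DKK1 differed by 1.96, as it was lower with bortezomib in the control line and not in KO1. MYH14 differed by -2.17, with KO1 levels under 1 FPKM in all 4 libraries. MYH14 passed the filter on low values through the other lines, the added 1 limits its change in KO1, and voom with the block gave a difference of 0.32 in the opposite direction (limma adjusted p 0.904). The cause was not tested, and CXCL1, CXCL2 and CXCL3 are neighbouring paralogs whose reads may be shared.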

How the results depend on the processing

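In KO1, 3378 calls became 29 with no replicate block, 1818 with no low filter (32192 genes tested), 27 in voom with no replicate block, chosen after seeing the data, and 814 with a log2 change of at least 1. Leaving out 1 library gave 1322 to 3444 calls. Other settings gave 2379 to 3881. The difference from the control line, 5 calls, became 0 with no replicate block, 0 when control libraries with no suffix shared the R1 level, 0 with a pseudocount of 0.1, 1 with no low filter, 9 with a mean FPKM of at least 5, 2 with quantile normalization, 3 without mitochondrially encoded genes, 55 in voom with the block and 0 in voom with no replicate block. Leaving out 1 library gave 0 to 2. The difference from KO2 had 0 calls in all settings run. An edgeR count test was not run, since the values are FPKM.

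Of 144 named genes called in KO1, none changed direction in any setting, and 126 lost their call with no replicate block. The MYH14 difference of -2.17 became 0.32 in voom with the block and 0.49 in voom with no replicate block. Its adjusted p over the alternatives was 0.0171 to 1. Among genes not called, signs changed for CANX (-0.15) with quantile normalization and DKK1 (0.011) with a common sum. Leaving out 1 library gave log2 changes of -0.029 to 0.25 for CANX, -0.20 to 0.051 for DDI2, -0.23 to 0.22 for DKK1, -0.23 to 0.13 for E2F1 and -0.060 to 0.025 for HSPA2. It gave -0.67 to 0.38 for JUNB, -0.32 to 0.56 for JUND, -0.11 to 0.40 for KLF4, -0.37 to 0.47 for MCL1 and -0.49 to 0.27 for NQO1. It gave -0.16 to 0.36 for PSMB10, -0.60 to 0.14 for PSMB9, -0.16 to 0.054 for SLC38A2 and -0.024 to 0.42 for SLC7A11. The cause was not tested. At 13211608 reads or more per library, genes near 3 reads carry little information.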

Other observations

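Outside the lists, long non-coding transcripts leaned towards lower levels with bortezomib in KO1. Of 258 lincRNA genes tested, 16 rose (6.2%) and 63 fell (24.4%), with a median log2 change of -0.34, against 14.7% and 13.9% of 10637 protein-coding genes. Antisense genes gave 19 (5.51%) and 69 (20.0%) of 345, but counting by strand is not stated. Of 8 gene families picked after the values were seen, histone cluster genes gave 0 rises and 6 falls among 11 (54.5% called, against 27.7% of all genes), with HIST1H2BD, an H2B gene, at 22.8 and 7.54 FPKM with vehicle and 2.69 and 1.46 with bortezomib. Of the cytosolic tRNA synthetase genes, whose products charge tRNAs, 10 of 17 rose and 1 fell (64.7% called). The other families had 56.2% (kinesins), 45.7% (DNAJ genes), 40.0% (V-ATPase subunits), 37.4% (solute carriers) and 25.8% (ZNF genes) called. Tubulins, counted together with gamma-tubulin complex genes such as TUBGCP2 and TUBGCP5, had 23.5% called.

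IL6, an inflammatory cytokine gene too low to be tested, had 0 reads in both vehicle libraries and 43 (R1) and 35 (R2) reads with bortezomib in KO1, at least 13.5-fold higher than a floor of 3 reads per library. In the control line it had 11 and 3 reads with bortezomib, and in KO2 12 and 7. IL6 was picked on KO1 reads alone, with 0 in both vehicle libraries and at least 10 in both bortezomib libraries. Its lower reads in the other lines therefore cannot show a difference between lines. GIPC3, picked by the same rule, went the other way. With bortezomib it had 13 and 13 reads in KO1, 99 and 31 in the control line and 48 and 36 in KO2. HSPA7, an HSP70 pseudogene beside HSPA6, went from 0 reads in both to 30 and 18, at least 8.54-fold higher, and had 20 and 13 reads with bortezomib in the control line and 28 and 34 in KO2.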
